A study of Homo sapiens with 4 samples.

Results

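Interferon-stimulated genes are the genes that cells switch on when an interferon binds its receptor. The set described here has 46 of them, chosen by name from textbook knowledge of the response, with earlier results of these data known. All 46 were found among the 41084 Ensembl identifiers in the files. They were divided by role into 30 effectors of the type I response, 4 genes of the GBP and IRF1 type, 7 sensors and signalling genes, and 5 genes of the SP100 family and the PARP9, DTX3L and PARP14 locus. Messenger RNA of OCI-AML3 cells, an established human acute myeloid leukaemia line, was sequenced in 4 libraries. In 2 libraries the genotype label is Plex CEBPB and in the other 2 it is Plex Control. The word Plex stands in both labels and is not explained in the sources used here. The labels give no treatment, dose or time, no promoter or clone, and do not say whether libraries of a group came from separate cultures, so p-values measure only the spread between these libraries, which may be technical.

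Type I interferons signal through IFNAR1 and IFNAR2 to a complex with STAT2 and IRF9, which binds a promoter element called ISRE and raises antiviral effectors such as the IFIT, OAS and MX genes. Interferon gamma signals through IFNGR1 and IFNGR2, acts at the promoter element called GAS and raises IRF1 and the guanylate-binding proteins (GBP). C/EBPβ, the product of CEBPB, is a leucine zipper factor of myeloid cells. The study's title places it in a loop with the cytokines IL-1β and TNFα in drug-resistant monocytic leukaemia cells.

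Summed deposited counts ranged from 18151225 to 21950575 per library, and the 2 libraries of a group were alike (Spearman correlation of TPM 0.992 in controls and 0.99 in CEBPB libraries over the identifiers tested). Levels are in TPM, which is adjusted for transcript length and library size. CEBPB itself read 4.72 and 4.47 TPM in the controls and 536 and 339 TPM in the CEBPB libraries (log2 fold change 6.38, SE 0.26, adjusted p = 1.3e-04, edgeR). Of the 10 myeloid markers, CD33 stood at 46.5 to 53.0 TPM in every library, while MPO and CD14 were at 5.36 TPM or less. LYZ rose from 1413 and 1308 TPM to 7686 and 7921 TPM (log2 2.34, adjusted p = 9.9e-05, edgeR). In that list 3 genes rose and 6 fell, where 23.7% and 24.7% of all identifiers tested did so. Besides LYZ, CD14 (log2 2.08) and ITGAM (1.8) rose. MPO (-2.43), FCGR1A (-2.38), CSF1R (-1.99), CD68 (-1.26), ELANE (-1.24) and SPI1 (-1.16) fell. Markers of other cells were low in sum: 0.139 to 1.06 TPM for 5 T cell genes (CD3E and CD2 at 0), 4.77 to 6.18 TPM for 5 NK cell genes (NCR1 at 0), 2.53 to 8.08 TPM for 5 B cell genes and 8.41 to 10.7 TPM for 5 genes of plasmacytoid dendritic cells, the main makers of type I interferon, with CLEC4C and GZMB at 0. All 5 erythroid genes were at 0. Of the 5 NK cell genes 1 rose and 2 fell: GNLY went from 0.0781 and 0 TPM to 2.77 and 4.06 TPM, PRF1 from 1.37 and 1.34 TPM to 0.142 and 0.0237 TPM and NCAM1 from 3.79 and 4.10 TPM to 1.82 and 2.06 TPM. GNLY passed the test's filter on low counts only through the CEBPB libraries, and PRF1 and MPO only through the controls. The part of these shifts in the results below was not tested.

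Promoters of 7 members are shown because the results below turn on them and because they differ in the elements named above. The sequences are RefSeq's on GRCh38.p14, each the 250 bases before RefSeq's start, read 5′ to 3′ on the gene's strand. Capitals mark a match to the ISRE core (GAAA, any 2 bases, then GAAA) or to GAS (TTCNNNGAA) on either strand.
GBP1 promoter, chr1:89065209-89065458, minus strand: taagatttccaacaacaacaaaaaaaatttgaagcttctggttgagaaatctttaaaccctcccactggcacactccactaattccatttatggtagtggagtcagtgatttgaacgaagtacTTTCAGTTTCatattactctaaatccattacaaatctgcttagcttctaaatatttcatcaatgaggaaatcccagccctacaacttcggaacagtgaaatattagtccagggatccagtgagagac
GBP4 promoter, chr1:89198943-89199192, minus strand: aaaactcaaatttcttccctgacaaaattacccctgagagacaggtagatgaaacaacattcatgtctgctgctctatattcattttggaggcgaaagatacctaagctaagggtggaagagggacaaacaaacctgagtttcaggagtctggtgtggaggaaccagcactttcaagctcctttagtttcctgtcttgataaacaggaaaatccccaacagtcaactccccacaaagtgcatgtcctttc
IRF1 promoter, chr5:132490774-132491023, minus strand: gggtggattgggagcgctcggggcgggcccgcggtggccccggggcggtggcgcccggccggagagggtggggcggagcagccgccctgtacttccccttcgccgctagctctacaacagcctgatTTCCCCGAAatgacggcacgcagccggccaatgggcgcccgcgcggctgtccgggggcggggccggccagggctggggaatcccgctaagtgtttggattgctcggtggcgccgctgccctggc
IFIT3 promoter, chr10:89327747-89327996, plus strand: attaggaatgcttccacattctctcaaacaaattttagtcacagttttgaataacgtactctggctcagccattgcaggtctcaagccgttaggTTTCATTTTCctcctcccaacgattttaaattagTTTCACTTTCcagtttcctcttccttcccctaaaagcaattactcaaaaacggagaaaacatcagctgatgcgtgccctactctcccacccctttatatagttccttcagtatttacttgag
HERC5 promoter, chr4:88456869-88457118, plus strand: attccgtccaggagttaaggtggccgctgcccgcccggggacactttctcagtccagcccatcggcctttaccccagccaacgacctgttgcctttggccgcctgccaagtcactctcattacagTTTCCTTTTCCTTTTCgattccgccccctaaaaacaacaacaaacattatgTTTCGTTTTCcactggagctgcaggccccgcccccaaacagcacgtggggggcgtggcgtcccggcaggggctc
IFIH1 promoter, chr2:162318685-162318934, minus strand: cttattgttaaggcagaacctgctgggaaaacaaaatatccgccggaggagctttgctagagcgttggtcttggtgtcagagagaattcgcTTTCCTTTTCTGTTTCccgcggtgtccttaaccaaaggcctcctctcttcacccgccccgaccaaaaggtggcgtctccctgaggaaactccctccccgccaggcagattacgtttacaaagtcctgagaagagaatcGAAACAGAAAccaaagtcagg
IFI44 promoter, chr1:78649539-78649788, plus strand: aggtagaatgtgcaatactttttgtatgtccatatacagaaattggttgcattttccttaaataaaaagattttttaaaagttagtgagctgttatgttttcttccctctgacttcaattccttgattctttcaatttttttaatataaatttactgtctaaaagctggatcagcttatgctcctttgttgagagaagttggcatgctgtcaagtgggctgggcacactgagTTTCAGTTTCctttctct
Of these, GBP1 and IFI44 hold 1 ISRE core match each, IFIT3 holds 2 and HERC5 and IFIH1 hold 3, of which a pair overlaps in each. IRF1 holds a GAS match and GBP4 holds neither motif. Among the 37 members with a promoter in the table, 17 (45.9%) held an ISRE core match, against 3.02% of all 35114 promoters of that length. GAS matches stood in 8 (21.6%) of the 37 against 6.57% of all. The C/EBP motif TTGCNNAA stood in 3 (8.11%), those of OAS1, HERC6 and SP110, against 9.05% of all. ISRE and GAS matches can share bases, as in EPSTI1. These are letter matches and not measured binding.

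The CEBPB libraries held more RNA of many interferon-stimulated genes, and the increase was uneven. GBP1 rose most and GBP2 next, a group of antiviral effectors rose between 1.28-fold and 3.92-fold, and IFI16, IFITM2, TRIM22 and IFI44 fell. Of the 46 members, 19 rose and 6 fell in edgeR's quasi-likelihood test with Benjamini-Hochberg adjustment over all 13698 identifiers that passed the filter on low counts, and 21 did not pass. Of all identifiers tested, 23.7% were higher and 24.7% lower at that threshold, against 41.3% and 13.0% of the members. The median log2 fold change was 0.46 over the members and 0.001 over all identifiers. In bulk RNA, more cells with a gene on and more RNA per cell cannot be told apart.

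All 46 members passed the filter, and every member other than IFITM1 and IFITM3 read at least 0.551 TPM in each library. Fold changes are scaled by trimmed mean of M values (TMM), and scaling by library totals instead moved the median of all identifiers up by 0.182 on the log2 scale. With library totals 25 members were higher and 4 lower, where 32.3% of all identifiers were higher and 17.2% lower. Raw TPM carries the same shift: both CEBPB libraries lay above both controls in 33 members and below in 5, where 48.7% and 28.6% of all identifiers did so. Tested against a change of 1.5-fold, 12 members were higher and 3 lower, against 8.66% and 8.67% of all identifiers. Summed over the 46 members, TPM came to 781 and 744 in the controls and 1115 and 997 in the CEBPB libraries.

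**Figure D1:**
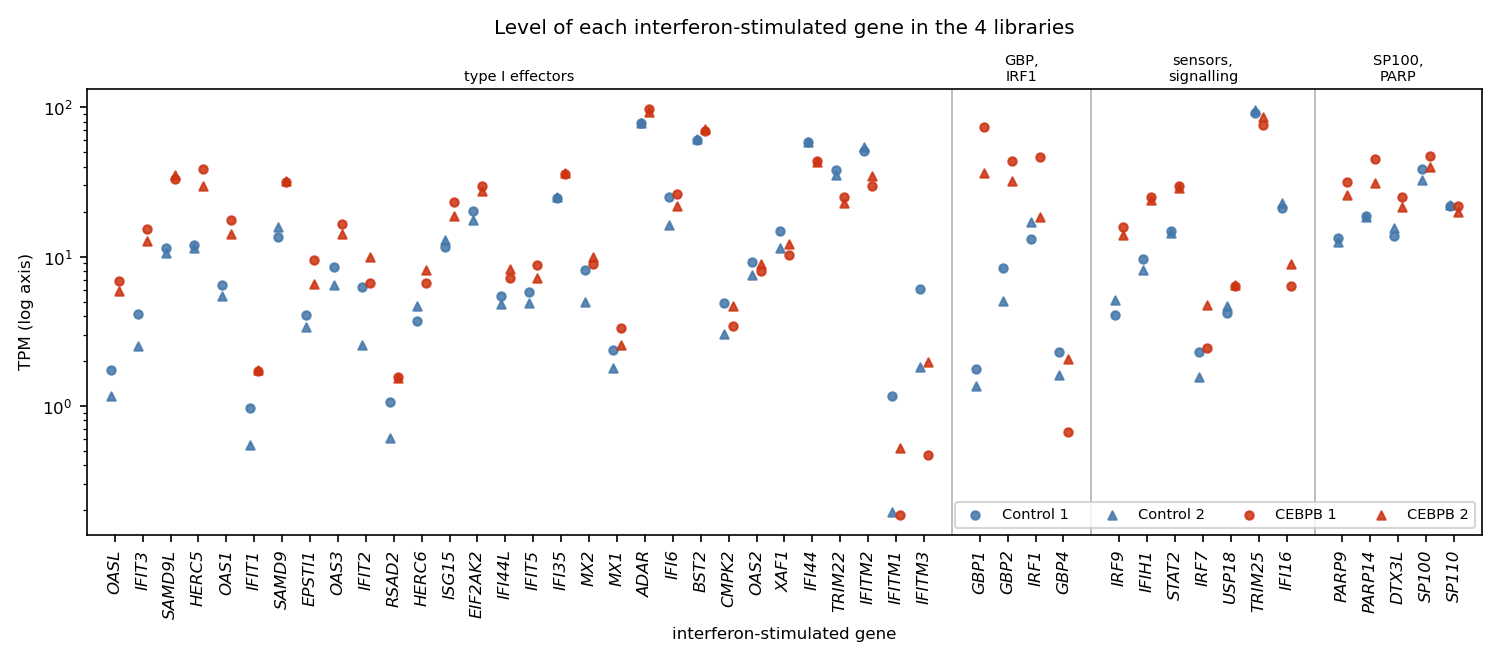
TPM of the 46 members (log axis) in each library, with controls in blue and CEBPB libraries in red, circles for replicate 1 and triangles for replicate 2, ordered within each role by fold change. GBP1 rose from 1.78 and 1.35 TPM to 73.4 and 36.1 TPM, while TRIM25, ADAR and BST2 were among the most abundant members in both genotypes.

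**Figure D2:**
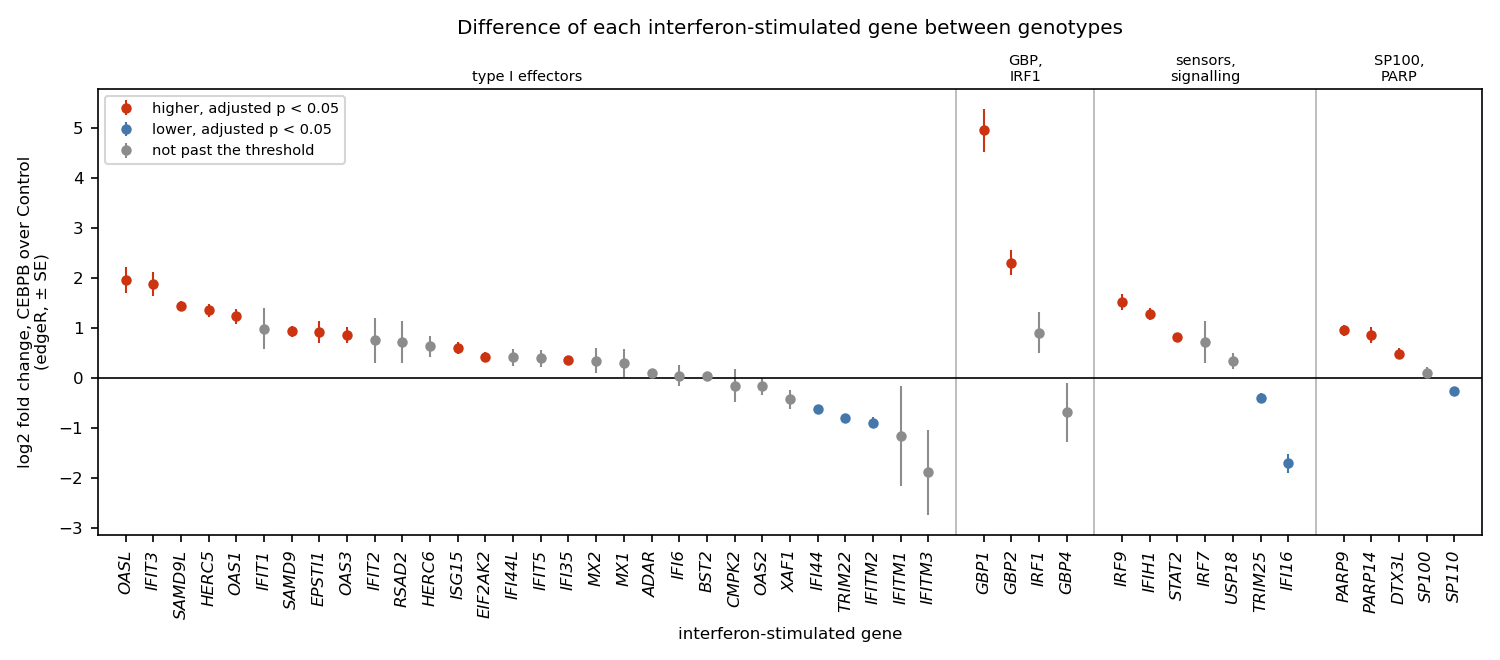
Log2 fold change of each member, CEBPB over Control, from edgeR with its standard error, by role. Red points rose (19), blue points fell (6) and grey points did not pass (21), with values from -1.88 for IFITM3, which did not pass, to 4.96 for GBP1.

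The guanylate-binding proteins are large GTPases that coat vacuoles of intracellular bacteria and act on inflammasomes. GBP1 (ENSG00000117228.11, GENCODE v29 on GRCh38, chromosome 1, 89052319 to 89065360, minus strand, protein-coding) read 1.78 and 1.35 TPM in the controls. The CEBPB libraries reached 73.4 and 36.1 TPM. Its groups did not overlap, and 48.7% of all identifiers tested likewise lay higher in both CEBPB libraries. The fold change of GBP1 was 31.1 (log2 4.96, SE 0.43, adjusted p = 7.6e-04, edgeR). By mean TPM it stood at place 42 of the 46 members in the controls and at place 4 in the CEBPB libraries, and its fold change was number 97 from the top among the 13698 identifiers tested. The CEBPB libraries differed between themselves about as much as their reads did, 2690 and 1107 recovered reads against 68 and 53 in the controls, where recovered reads are TPM times effective transcript length scaled to the library total. Without CEBPB replicate 1 the log2 fold change was 4.41 and without CEBPB replicate 2 it was 5.35, both past the threshold (adjusted p = 0.00151 and 8.2e-04, edgeR).

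GBP2 (chromosome 1, 89106132 to 89150456, minus strand) lies 40772 bases beyond GBP1. It read 8.34 and 5.08 TPM in the controls and 43.6 and 31.9 TPM in the CEBPB libraries, a log2 rise of 2.31 (SE 0.25, adjusted p = 0.00143, edgeR). GBP4 (89181148 to 89198932), the next member along the cluster, did not follow. Its TPM was 2.31 and 1.62 in the controls and 0.668 and 2.07 in the CEBPB libraries, so the groups overlapped (log2 -0.68, SE 0.59, adjusted p = 0.391, edgeR). The value depends on the CEBPB libraries, at -0.041 without replicate 1 (adjusted p = 0.945) and -1.73 without replicate 2 (adjusted p = 0.0584, edgeR). Recovered reads of GBP4 were 82 and 88 in the controls and 63 and 78 in the CEBPB libraries (log2 -0.27, adjusted p = 0.379, edgeR), and its effective length was 5752 bases in CEBPB replicate 1 against 2065 to 2945 bases in the other libraries.

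IRF1 is a transcription factor induced by interferon gamma and by NF-κB, and it drives GBP and antigen-presentation genes. Its TPM was 13.2 and 17.1 in the controls and 46.6 and 18.5 in the CEBPB libraries, so CEBPB replicate 1 stood high and replicate 2 only just above the controls. At 0.91 on the log2 scale (SE 0.41, adjusted p = 0.121, edgeR) the difference did not pass. Without CEBPB replicate 1 it was 0.15 (adjusted p = 0.576, edgeR) and without CEBPB replicate 2 it was 1.4 (adjusted p = 0.00673, edgeR). The CEBPB library kept thus decides the call.

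In reads the IRF1 libraries stood closer together. Recovered reads were 267 and 353 in the controls and 621 and 495 in the CEBPB libraries. The effective length assigned to the gene was 816 bases in CEBPB replicate 1 and 1877 bases in replicate 2, against 1187 and 1119 bases in the controls. On recovered reads the log2 fold change of IRF1 was 0.83 (adjusted p = 0.00104, edgeR), and when a length offset was added it was again 0.83 but short of the threshold (adjusted p = 0.109, edgeR). IFIT2, which encodes an RNA-binding effector, was a like case. It read 6.21 and 2.57 TPM in the controls and 6.67 and 9.97 TPM in the CEBPB libraries (log2 0.76, adjusted p = 0.221, edgeR). Its recovered reads were 94 and 62 against 316 and 270, at effective lengths of 886 and 1307 bases against 2897 and 1897 bases. IFIT2 passed on recovered reads (log2 1.88, adjusted p = 4.6e-04, edgeR) and not with the length offset (0.73, adjusted p = 0.184, edgeR).

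**Figure D3:**
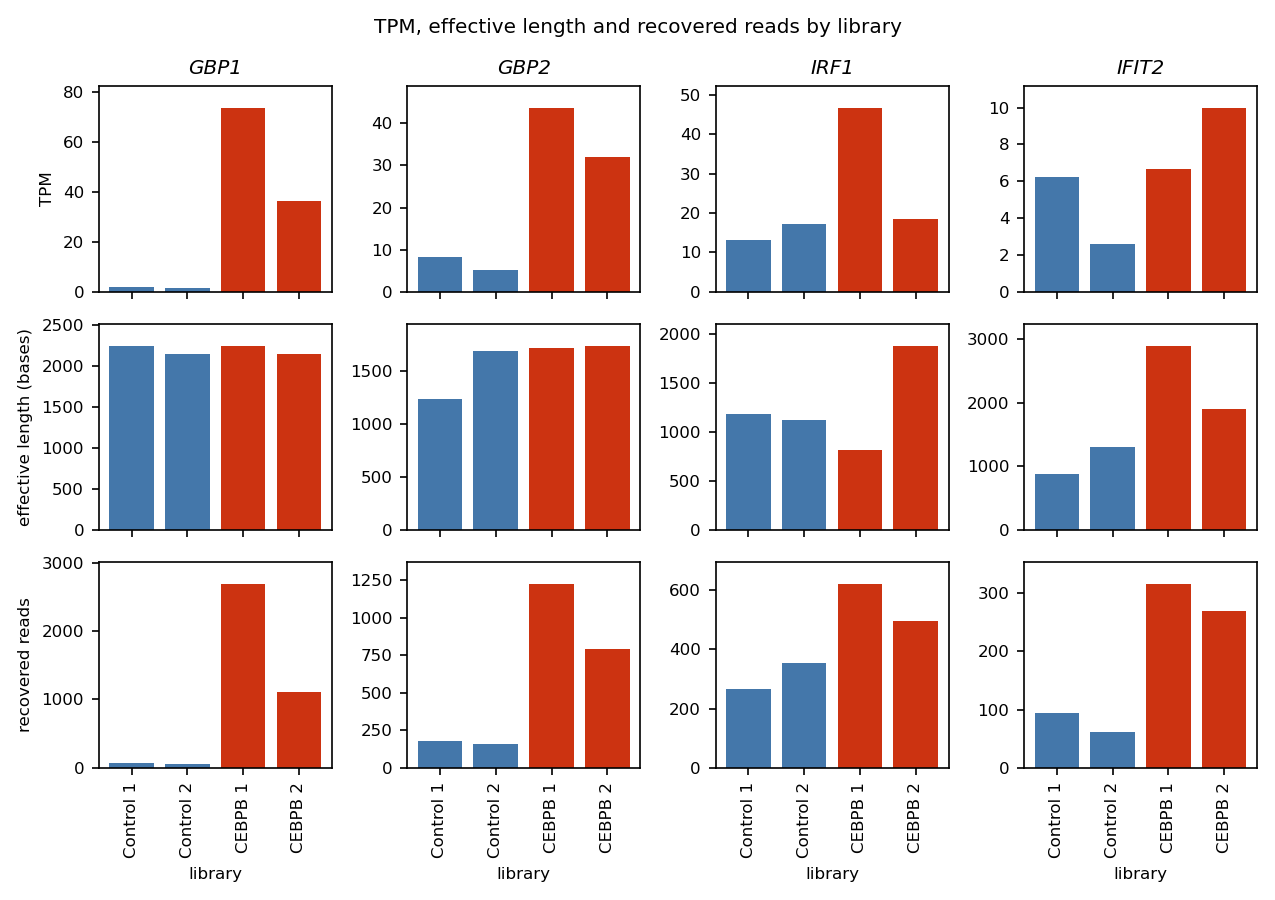
TPM (top), effective length in bases (middle) and recovered reads (bottom) of GBP1, GBP2, IRF1 and IFIT2 in each library, with controls in blue and CEBPB libraries in red. The TPM of IRF1 in CEBPB replicate 1 (46.6) goes with the shortest effective length (816 bases), while its recovered reads (621 and 495) are closer together in the CEBPB libraries.

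Set side by side, 2 of the 4 genes of the GBP and IRF1 type rose and 0 fell in edgeR's test (0 also at an unadjusted p under 0.05, and 0 with DESeq2 and with limma), with a median log2 fold change of 1.61 and a range from -0.68 to 4.96. Among the 30 type I effectors 11 rose and 3 fell, with a median of 0.41 and a range from -1.88 to 1.97. Both counts stand against 23.7% of all identifiers tested that were higher and 24.7% that were lower. No effector reached the fold change of GBP1 or GBP2. The difference between the groups of genes was not tested, and 4 genes are few. Summed TPM went from 25.6 and 25.2 to 164 and 88.6 in the GBP and IRF1 group, of which GBP1 alone gave 73.4 and 36.1, and from 500.5 and 466 to 618 and 598 in the effectors.

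Among the effectors, the OAS family makes or resembles the synthetases of short oligoadenylates that switch on RNase L. OASL, the family member that lacks this activity, read 1.73 and 1.16 TPM in the controls and 6.82 and 5.91 TPM in the CEBPB libraries (log2 1.97, SE 0.26, adjusted p = 0.00252, edgeR). OAS1 rose from 6.46 and 5.46 TPM to 17.7 and 14.1 TPM (log2 1.24, adjusted p = 0.00223, edgeR). OAS3 rose from 8.49 and 6.47 TPM to 16.5 and 14.2 TPM (0.86, adjusted p = 0.00943, edgeR). These 3 genes did not overlap between genotypes, while 48.7% of all identifiers tested lay higher in both CEBPB libraries in TPM. OAS2, which shares a cluster on chromosome 12 with OAS1 and OAS3, read 9.23 and 7.52 TPM against 8.05 and 8.98 TPM, and the groups overlapped (log2 -0.16, adjusted p = 0.486, edgeR), with 0.021 when scaled by library totals.

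IFIT proteins bind viral RNA or help their relatives to do so. IFIT3 (chromosome 10, 89327894 to 89340971, plus strand) stood at 4.10 and 2.53 TPM in the controls and 15.4 and 12.7 TPM in the CEBPB libraries (log2 1.89, SE 0.24, adjusted p = 0.00248, edgeR). Its neighbours IFIT1 (0.99, adjusted p = 0.103, edgeR) and IFIT5 (0.40, adjusted p = 0.109, edgeR) did not pass. In both genes the CEBPB libraries lay above both controls in TPM, as in 48.7% of all identifiers tested. IFIT1 was at 0.551 to 1.73 TPM. On recovered reads IFIT1 (adjusted p = 0.0274) and IFIT5 (adjusted p = 0.0162, edgeR) passed. With the length offset IFIT1 still passed (0.93, adjusted p = 0.0486, edgeR) and IFIT5 did not (0.34, adjusted p = 0.163, edgeR).

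HERC5, the ligase that joins ISG15 to its targets, rose from 11.9 and 11.5 TPM to 38.8 and 29.5 TPM (log2 1.36, adjusted p = 1.0e-03, edgeR). ISG15, the ubiquitin-like protein it attaches, rose less, from 11.6 and 12.9 TPM to 23.2 and 18.8 TPM (0.60, adjusted p = 0.0112, edgeR). Without control 1, ISG15 did not pass (adjusted p = 0.0546, edgeR). HERC6, next to HERC5 on chromosome 4, read 3.72 and 4.69 TPM against 6.70 and 8.10 TPM and fell just short (log2 0.64, adjusted p = 0.0535, edgeR), passing under 8 of 17 alternatives, a replicate block among them (adjusted p = 0.0327, edgeR). USP18, the protease that removes ISG15 and restrains IFNAR2, did not pass (0.35, adjusted p = 0.125, edgeR). With library totals it did (adjusted p = 0.0421, edgeR), as it did on log2 TPM (adjusted p = 0.0364 and 0.0362, limma).

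SAMD9 and SAMD9L are neighbouring genes on chromosome 7 for proteins that restrict poxviruses and slow growth of blood cells. SAMD9L rose from 11.4 and 10.6 TPM to 33.0 and 35.1 TPM (log2 1.45, SE 0.10, adjusted p = 4.3e-04, edgeR), the smallest adjusted p among the members. SAMD9 rose from 13.5 and 15.9 TPM to 31.7 and 32.1 TPM (0.94, adjusted p = 0.00178, edgeR). In both genes the 2 libraries of a genotype lay far closer to each other than to the other genotype.

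EPSTI1, EIF2AK2 and IFI35 rose as well. EPSTI1 went from 4.05 and 3.38 TPM to 9.47 and 6.57 TPM (log2 0.92, adjusted p = 0.0195, edgeR), and did not pass without control 2 (0.0844) or CEBPB replicate 1 (0.0803). EIF2AK2, which encodes the RNA-activated kinase PKR that halts translation, went from 20.1 and 17.5 TPM to 29.9 and 27.4 TPM (0.43, adjusted p = 0.0174, edgeR). IFI35, a partner of NMI, went from 24.8 and 24.9 TPM to 35.9 and 36.4 TPM (0.36, adjusted p = 0.0132, edgeR). EIF2AK2 did not pass without control 2 (0.0902), CEBPB replicate 1 (0.071) or CEBPB replicate 2 (0.0516), nor IFI35 without control 1 (0.0743) or control 2 (0.0745).

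The effectors IFITM2, TRIM22 and IFI44 fell, and no library of one genotype overlapped the other. In TPM, 28.6% of all identifiers tested lay lower in both CEBPB libraries. IFITM2, a membrane protein that blocks viral fusion, fell from 50.8 and 54.5 TPM to 29.9 and 34.4 TPM (log2 -0.89, SE 0.11, adjusted p = 0.00225, edgeR). TRIM22, an antiviral ubiquitin ligase, fell from 38.2 and 35.0 TPM to 25.1 and 22.9 TPM (-0.79, adjusted p = 0.00131, edgeR). IFI44 fell from 58.9 and 59.0 TPM to 43.7 and 43.1 TPM (-0.62, adjusted p = 0.00139, edgeR). Its neighbour IFI44L, 3651 bases away on the same strand, did not pass (0.42, adjusted p = 0.0985, edgeR). IFI44L lay higher in both CEBPB libraries, at 7.24 and 8.28 TPM against 5.44 and 4.82 TPM. It passed on recovered reads (0.83, adjusted p = 0.00144, edgeR) and not with the length offset (0.37, adjusted p = 0.12, edgeR). Library totals (0.6, adjusted p = 0.0308, edgeR) and limma on log2 TPM also gave a pass. IFITM2 overlaps IFITM1 in GENCODE v29, so their reads may be shared. IFITM1 and IFITM3, each at 19 recovered reads or fewer per library, did not pass (-1.16 and -1.88, adjusted p = 0.386 and 0.124, edgeR). The value of IFITM3 ran from -0.73 without control 1 to -3.3 without CEBPB replicate 2 and was -0.48 on recovered reads, its effective length being 106 bases in control 1 and 523 to 601 bases in the other libraries.

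The other 9 effectors that did not pass cover both directions. Besides IFIT2, described above, some had both CEBPB libraries above both controls in TPM, as did 48.7% of all identifiers tested. They were MX1 (log2 0.31), MX2 (0.35), RSAD2 (0.72), ADAR (0.10) and BST2 (0.04), with adjusted p from 0.213 to 0.706 (edgeR). MX1 and MX2 encode dynamin-like GTPases, RSAD2 encodes viperin, ADAR edits RNA and BST2 tethers virions. BST2 changed sign without CEBPB replicate 2 (-0.018) and once a length offset was added to recovered reads (-0.014), and passed as higher with library totals (0.22, adjusted p = 0.0497, edgeR). IFI6 (0.05), CMPK2 (-0.15) and XAF1 (-0.42) overlapped between genotypes, and IFI6 and CMPK2 changed sign under some alternatives. CMPK2 and RSAD2 overlap head to head by 829 bases, and the strand setting of the counting is not given in the sources used here, so reads of the overlap may be shared between them.

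**Figure D4:**
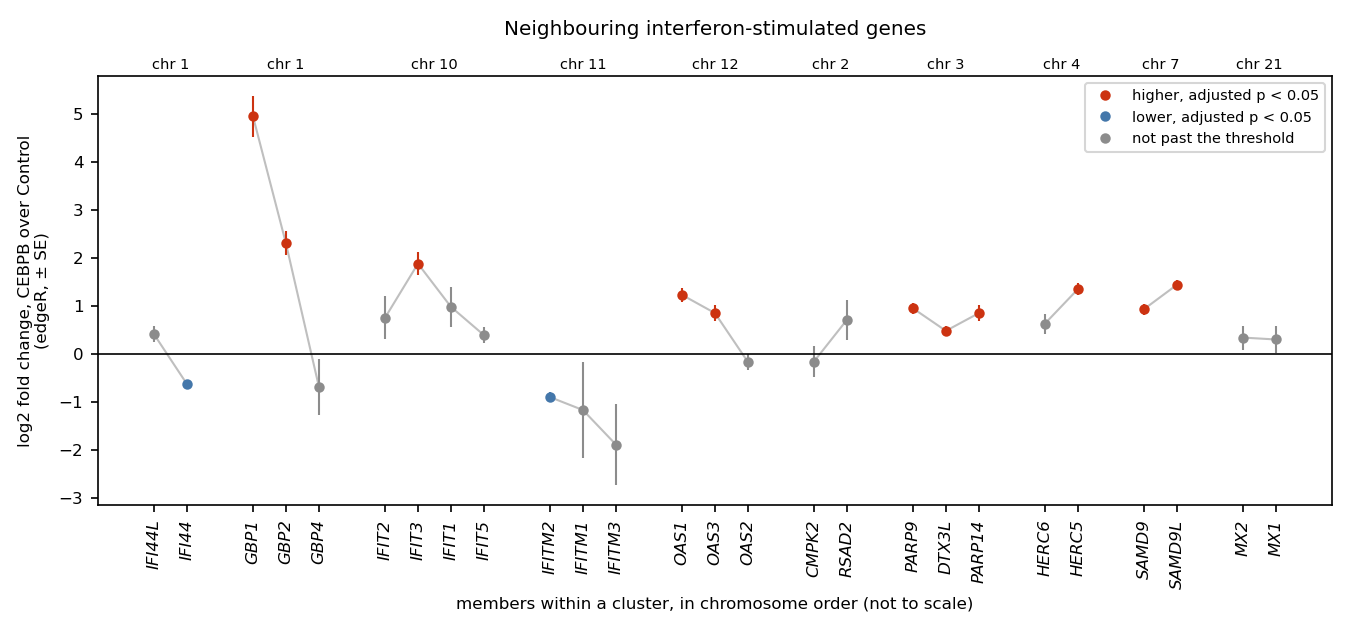
Log2 fold change (edgeR, with standard error) of members that lie within 200000 bases of each other, in chromosome order, grouped by cluster and coloured by call. The pair SP110 and SP100, 190213 bases apart, is not shown. GBP1 (4.96) and GBP2 (2.31) stand above GBP4 (-0.68), OAS1 (1.24) and OAS3 (0.86) above OAS2 (-0.16), and SAMD9 and SAMD9L rose together.

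Among sensors and signalling genes 3 of 7 (42.9%) rose and 2 (28.6%) fell, against 23.7% and 24.7% of all identifiers tested. IRF9, the DNA-binding partner of STAT2, rose from 4.06 and 5.09 TPM to 15.9 and 13.9 TPM (log2 1.52, SE 0.16, adjusted p = 0.00123, edgeR). STAT2 rose from 14.9 and 14.4 TPM to 29.8 and 28.7 TPM (0.82, adjusted p = 0.00114, edgeR). IFIH1, the gene of the cytoplasmic RNA sensor MDA5, rose from 9.70 and 8.08 TPM to 24.9 and 24.0 TPM (1.28, SE 0.12, adjusted p = 9.2e-04, edgeR). The genotypes did not overlap in these 3 genes, where 48.7% of all identifiers tested lay above both controls in both CEBPB libraries.

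IFI16, a sensor of DNA in the nucleus and cytosol, went the other way. It fell from 21.2 and 22.9 TPM to 6.38 and 8.97 TPM (log2 -1.70, SE 0.19, adjusted p = 0.00168, edgeR), or 3.26-fold, the largest fall past the threshold among the members. TRIM25, the ubiquitin ligase that activates RIG-I and the most abundant member in the controls, fell from 92.0 and 95.4 TPM to 75.6 and 86.5 TPM (-0.39, adjusted p = 0.0294, edgeR). TRIM25 did not pass with library totals (adjusted p = 0.105), without control 1 (0.084), without control 2 (0.12) or without CEBPB replicate 1 (0.0515, edgeR). IRF7, the factor that amplifies interferon alpha genes, read 2.28 and 1.56 TPM against 2.45 and 4.71 TPM and did not pass (0.72, adjusted p = 0.21, edgeR).

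PARP9, DTX3L and PARP14 lie together on chromosome 3 and encode ADP-ribosylation proteins, the PARP9 and DTX3L proteins forming a complex. PARP9 rose from 13.3 and 12.6 TPM to 31.4 and 25.7 TPM (log2 0.96, adjusted p = 0.00166, edgeR). PARP14 rose from 18.7 and 18.3 TPM to 45.3 and 31.1 TPM (0.86, adjusted p = 0.00881, edgeR). DTX3L rose from 13.8 and 15.6 TPM to 25.2 and 21.4 TPM (0.49, adjusted p = 0.0152, edgeR), and did not pass without control 1 (0.0738) or CEBPB replicate 1 (0.0696). PARP9 and DTX3L face away from each other and overlap by 339 bases at their starts. All 3 lay higher in both CEBPB libraries than in either control, as did 48.7% of all identifiers tested.

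SP100, the scaffold of nuclear bodies that restrict viral DNA, read 38.6 and 32.8 TPM against 47.4 and 39.7 TPM and did not pass (log2 0.11, adjusted p = 0.469, edgeR). SP110, its relative, read 21.7 and 22.1 TPM against 21.8 and 19.8 TPM. Although its TPM overlapped between genotypes, SP110 was counted among the 6 that fell (-0.25, adjusted p = 0.0481, edgeR). That call was lost under 13 of 17 alternatives, each library left out in turn among them (adjusted p from 0.102 to 0.178, edgeR).

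Of the 25 members past the threshold, 15 passed under every one of the 17 alternatives. They were GBP1, GBP2, OASL, OAS1, IFIT3, HERC5, SAMD9, SAMD9L, IFIH1, STAT2, IRF9 and PARP9, which rose, and IFI16, IFITM2 and TRIM22, which fell. Set against the promoters shown first, an ISRE core match was present in 9 of 17 members with a promoter that rose, 1 of 4 that fell and 7 of 16 that did not pass the test.

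No interferon gene had enough reads to test. Of 21 listed interferon ligand genes 19 were listed at 0 TPM in every library, IFNG among them. IFNB1 read 0.117 TPM and IFNL1 0.0375 TPM in control 1 and both were at 0 elsewhere. Of 15 genes for receptors, kinases and brakes 5 rose and 3 fell. Among all identifiers tested 23.7% were higher and 24.7% lower, shares that leave out untested genes. Whether this list differs from all identifiers was not tested. IFNGR1, the ligand-binding chain of the interferon gamma receptor, rose from 67.9 and 65.2 TPM to 194 and 179 TPM (log2 1.31, adjusted p = 2.0e-04, edgeR). IFNAR2, the signalling chain of the type I receptor, fell from 37.8 and 40.4 TPM to 18.0 and 20.7 TPM (-1.19, adjusted p = 9.7e-04, edgeR). Their partner chains IFNGR2 (0.07) and IFNAR1 (-0.07) did not pass (adjusted p = 0.548 and 0.616, edgeR). The phosphatase genes PTPN6 (-1.75, adjusted p = 1.3e-04) and PTPN2 (-0.60, adjusted p = 0.00222, edgeR), both brakes on JAK and STAT signalling, fell. Other brakes rose, namely PIAS1 (0.48, adjusted p = 0.00777) and, from 0.0526 and 0.197 TPM to 1.11 and 0.738 TPM, SOCS3 (2.68, adjusted p = 0.0257, edgeR). SOCS3 passed the filter on low counts only through the CEBPB libraries, so it could only be called higher. SOCS1, at 0.598 TPM or less, had too few counts to test.

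Of 17 genes of nucleic acid sensing 6 (35.3%) rose, 3 (17.6%) fell, 5 did not pass and 3 had too few counts to test. The shares among all identifiers tested, 23.7% and 24.7%, leave out untested genes, while the shares of the 17 include them. STING1, the adaptor of cytosolic DNA sensing, fell from 18.3 and 22.4 TPM to 5.50 and 5.75 TPM (log2 -2.04, adjusted p = 4.4e-04, edgeR), and the kinase gene IKBKE fell by 1.05 on the log2 scale. TLR8, a receptor for RNA in endosomes, rose from 5.53 and 4.70 TPM to 27.7 and 33.9 TPM (2.42, adjusted p = 4.5e-04, edgeR). The kinase gene TBK1 (0.61) and the adaptor gene MYD88 (0.54) rose as well.

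Other genes of the interferon gamma type moved in both directions. Of 27, 8 (29.6%) rose, 5 (18.5%) fell, 8 did not pass and 6 had too few counts. The shares among all identifiers tested were 23.7% and 24.7%, which leave out untested genes, while the shares of the 27 include them. The median log2 fold change was -0.06 over the genes of this list that were tested. GBP3, a further gene of the GBP family, rose from 6.17 and 5.97 TPM to 51.8 and 43.8 TPM (2.79, adjusted p = 1.2e-04, edgeR). The chemokine gene CXCL10 rose from 0.435 and 0.405 TPM to 9.86 and 5.24 TPM (3.92, adjusted p = 0.0012, edgeR). CD274, the gene of the checkpoint ligand PD-L1, rose from 0.133 and 0.0856 TPM to 1.92 and 2.02 TPM (3.79, adjusted p = 0.00234, edgeR). CXCL10 and CD274 had 5 to 7 recovered reads in the controls and passed the filter on low counts only through the CEBPB libraries. Both could thus only be called higher. NLRC5, a regulator of class I antigen-presentation genes (1.0), IRF2 (0.80), APOL1 (0.48), TAP1 (0.43) and B2M (0.38) rose by less. IRF8, a partner of IRF1 on DNA, fell by 2.24 on the log2 scale. FCGR1A, the high-affinity Fc receptor gene, fell by 2.38, the immunoproteasome subunit gene PSMB10 by 1.5 and the peptide transporter gene TAP2 by 1.53 on that scale. CD74, the invariant chain gene of class II presentation, fell by 1.15. Of 24 further type I genes 6 rose and 5 fell, with a median of 0.09 over the 22 tested. PLSCR1, a scramblase gene, rose from 55.0 and 58.5 TPM to 192 and 181 TPM (1.54, adjusted p = 1.5e-04, edgeR), and HELZ2 (1.49) and PARP12 (0.81) rose. LY6E (-0.73) and DDX60L (-0.60) fell.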

How the data were processed

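The 4 libraries, 2 per genotype, hold poly(A) RNA of OCI-AML3 cells. Per the labels, RNA came from a column kit and libraries from a stranded Illumina kit. Per the submitters' processing notes, Trimmomatic (0.39) and kallisto (0.46.2) were used with GRCh38. The annotation release, strand setting and gene-level summary are not given in the sources used here. The authors deposited TPM, effective lengths in bases and expected counts (estimated counts), each count being TPM times 1 constant per library.

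Counts were rounded, filtered by filterByExpr, scaled by TMM and tested with edgeR 4.0.16 (R 4.3.3) by the quasi-likelihood F test at a Benjamini-Hochberg adjusted p of 0.05 over all identifiers. The biological coefficient of variation was 11.3%. The fit was also run on simulated counts with far fewer changed genes than were called here, so that run does not check the scaling. Symbols matched 35690 identifiers, and a symbol took its identifier with the highest mean TPM. Every member past the threshold is named, with up to 5 genes of the smallest adjusted p per pathway list, 1 of each direction where both passed; IFNAR1, IFNGR2, IFNG, IFNB1, IFNL1, SOCS1, SOCS3, PIAS1, CXCL10, CD274, NLRC5, IRF2, APOL1, TAP1, B2M, CD74, GNLY, PRF1 and NCAM1 were named after their values were seen, as were the 7 promoters chosen. One gene that the rule names is not reported here. The myeloid markers ITGAM, SPI1, CSF1R, CD68 and ELANE were also named after their values were seen. Members and lists were chosen with earlier results of these data known. Recovered reads multiply TPM by effective length and are scaled to sum to each library's total. Alternatives used edgeR, DESeq2 1.42.0 and limma 3.58.1, with 1 or 0.1 added to TPM before log2. Plots used Python 3.11.15 and matplotlib 3.10.9.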

Additional observations from a re-analysis of the deposited data

How the results depend on the processing

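The counts of members that rose or fell, in all, among the effectors and in the GBP and IRF1 group, stayed within 1.5 times under most of the 17 alternatives. Tested against a 1.5-fold change, 12 members rose, 3 fell, and 6 effectors rose, where 8.66% of all identifiers rose and 8.67% fell. With recovered reads, and with limma on log2 TPM with 1 or 0.1 added, 17 effectors rose each time, while 30.5%, 32.8% and 32.6% of all identifiers tested rose, against 23.7% in the reported test. With recovered reads and lengths offset 13 effectors rose, and 23.2% of all. With 1 library left out, the median log2 fold change of all identifiers stayed between -0.001 and 0.005. The replicate numbers did not pair the libraries (correlation of deviations -0.0131). With a replicate block 20 members rose and 5 fell, as HERC6 passed and SP110 did not. With that block 23.2% of all identifiers rose and 24.1% fell. No member past the threshold changed sign. Among members that did not pass, IFI6 changed sign with recovered reads (-0.02), with these and a length offset (-0.0073), and with 1 library left out (-0.24 to 0.39, below 0 without control 2 and without CEBPB replicate 1, -0.047). IFITM1 did so without control 1 (-2.05 to 0.67 over the libraries left out). OAS2 did so with library totals (0.021) and with limma on log2 TPM (0.025 and 0.028). CMPK2 did so with library totals (0.028), limma (0.04 and 0.053), without control 1 (0.25) and without CEBPB replicate 1 (0.11), with -0.46 as the lowest. BST2 did so on recovered reads once lengths were offset (-0.014) and without CEBPB replicate 2 (-0.018), and SP100 without control 2 (-0.0089 to 0.23 over the libraries left out). IFIT2 passed without control 1 (1.53, adjusted p = 0.0261, edgeR). Where a genotype was left with 1 library, that library is assumed to vary like the other genotype. The causes were not tested. IFITM1 and IFITM3 had the fewest recovered reads of the members, 2 to 19 per library.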
